A study of Mus musculus with 9 samples.

Results

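Transcripts of the mitochondrial genome took a larger share of the RNA fragments of the mouse heart after birth, and they did not change together. The mRNA of cytochrome c oxidase subunit 1, mt-Co1, rose at P1d and at P7d against E18.5d. Its further rise from P1d to P7d was smaller and did not pass when any single P7d heart was left out. The mRNAs of mt-Nd4, mt-Nd5 and mt-Cytb rose at P7d against both earlier stages. Of these, mt-Nd4 also rose at P1d against E18.5d, a call that depended on how the columns were scaled. The value of mt-Nd6, which lies on the other strand than the other mRNAs, fell at P1d and rose from P1d to P7d. Its fragments could not be told apart from RNA of the opposite strand. The members were the genes whose names begin with mt-, which are 37 of the 48820 genes listed: 13 mRNAs, 2 rRNAs and 22 tRNAs. The symbol column of the deposited table has no name of that form (it has ND1, COX1 and the like for the mRNAs, and NA for 24 members), so the members were found by their gene identifiers in GENCODE M21.

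The mitochondrial genome is a small circle that encodes a few membrane subunits of the respiratory chain and the RNAs needed to translate them. Both strands are transcribed into long precursors, most genes lie in the heavy-strand precursor, and tRNAs placed between the genes are cut out to release the mRNAs and rRNAs. All other subunits of the respiratory chain, and every protein that copies, transcribes and processes this genome, come from nuclear genes. The heart depends on this chain for its ATP, and its mitochondria enlarge and mature around birth.

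RNA-seq had been carried out on 9 whole hearts of C57BL/6J mice of WT genotype that received no treatment, 3 each at embryonic day 18.5 (E18.5d), postnatal day 1 (P1d) and postnatal day 7 (P7d). All 9 were labelled male. The paper calls the 3 hearts of a stage biological replicates, without saying whether they came from different litters. Values were FPKM, the fragments per kilobase of gene length and per 1e6 fragments.

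Before any result, 7 pieces of the mitochondrial genome have to be considered that also lie in the nuclear genome. On chromosome 1 (GRCm38, chr1:24611535-24616197, minus strand), a stretch of 4663 bases is annotated as 7 unprocessed pseudogenes that match chrM:6390-11042 at 99% identity or more. Of these 7, 5 had no mismatch over the aligned bases: Gm28661 to mt-Co2 (681 bases), Gm10925 to mt-Atp6 (678), Gm28437 to mt-Co3 (783), Gm28439 to mt-Nd4 (876 of its 1378) and Gm10222 to mt-Nd4l (294). The pseudogene of mt-Co2 lacks only the last 3 bases of the gene, the stop codon, shown in capitals:
mt-Co2 end, chrM:7637-7696, plus strand: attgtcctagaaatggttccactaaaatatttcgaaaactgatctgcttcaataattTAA
Gm28661 end, chr1:24614885-24614941, minus strand: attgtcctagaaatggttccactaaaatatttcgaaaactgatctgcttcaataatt

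The other two pairs differ at 1 base each, in capitals below. Gm29216 covers the last 483 bases of mt-Co1 with the substitution A1066T, and Gm28438 covers 345 bases of mt-Nd3 with T3C, where the mitochondrial base comes first and positions count from 1 at the gene's 5′ end.
mt-Co1, chrM:6390-6423, plus strand: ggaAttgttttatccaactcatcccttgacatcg
Gm29216, chr1:24616155-24616188, minus strand: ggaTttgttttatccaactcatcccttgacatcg
mt-Nd3, chrM:9459-9491, plus strand: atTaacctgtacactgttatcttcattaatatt
Gm28438, chr1:24613087-24613119, minus strand: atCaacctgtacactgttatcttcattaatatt

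A read inside an identical stretch cannot be given to one locus by its sequence. In the deposited table most of the value stood at the pseudogene for the pairs that match over the whole gene. Gm28661 was listed at 3282 to 5747 FPKM over the 9 hearts and mt-Co2 at 106 to 349 FPKM, so that the mitochondrial gene held 2.27% to 6.88% of the pair. The mitochondrial gene held 6.79% to 13.3% of its pair for mt-Co3, 2.79% to 26.1% for mt-Atp6, 19.3% to 33.6% for mt-Nd3 and 5.75% to 55.2% for mt-Nd4l. The pseudogene of mt-Nd4 was at 0.16 to 1.74 FPKM, beside 384 to 1169 FPKM for mt-Nd4. In all, 16 loci matched a member at 90% or more over at least 100 bases, 6 of them (Gm28661, Gm10925, Gm28437, Gm10222, Gm29216 and Gm28438) reached 10 FPKM in any heart, and the highest value of a locus under 99% identity was 3.76 FPKM. For the affected genes the sum of the pair is given beside the deposited value. That sum was chosen as an alternative after the values were seen.

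**Figure D1:**
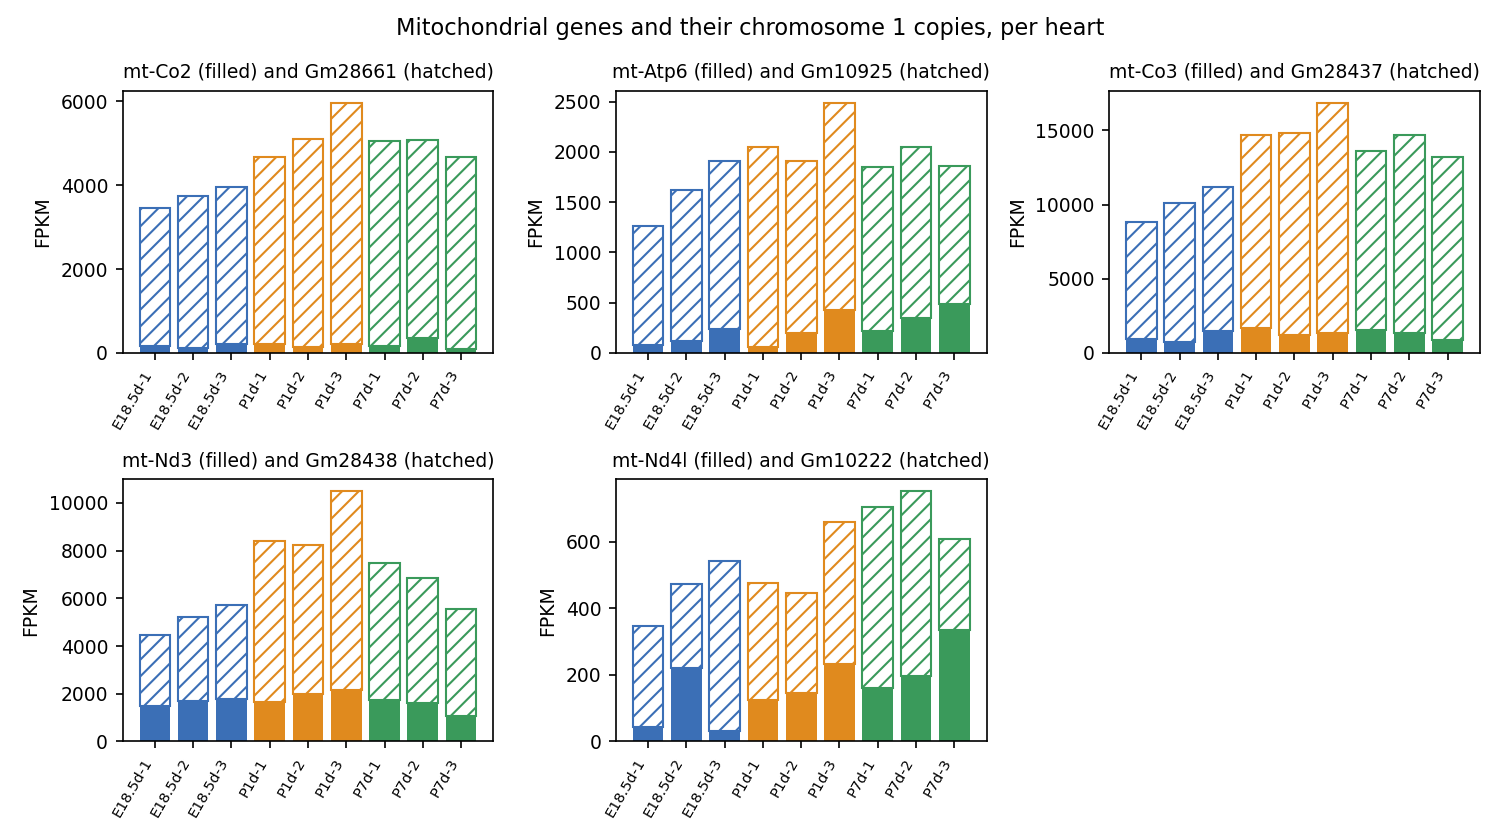
FPKM as deposited of 5 mitochondrial genes (filled) and of their chromosome 1 copies (hatched), stacked, in each of the 9 hearts. The copy held the larger part in every heart for mt-Co2, mt-Atp6, mt-Co3 and mt-Nd3, while for mt-Nd4l the division ran from 5.75% to 55.2% at the mitochondrial gene.

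Gene overlaps matter in the same way. The last 43 bases of mt-Atp8 are the first of mt-Atp6, and the last 7 of mt-Nd4l are the first of mt-Nd4, so a single RNA carries both reading frames of each pair (shared bases in capitals).
mt-Atp8/mt-Atp6, chrM:7915-7981, plus strand: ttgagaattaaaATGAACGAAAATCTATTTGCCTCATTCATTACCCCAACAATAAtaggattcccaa
mt-Nd4l/mt-Nd4, chrM:10147-10193, plus strand: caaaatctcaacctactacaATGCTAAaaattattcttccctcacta

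The depth, read from the steps between low values, was 25.5 to 44.0 times 1e6 fragments per heart, and 296 to 328 bases had been taken off each gene's length. The values of mt-Atp8 (204 bases), mt-Nd4l (297) and mt-Nd3 (348) therefore rest on a length correction larger than, or close to, the gene itself, and their FPKM cannot be set beside those of longer genes. All 22 tRNAs, of 59 to 75 bases, were listed at 0 in all 9 hearts, which gives no information on their amount. Of each column's sum, 53.3% to 62.3% fell on 5 short noncoding RNAs (Rmrp, Rpph1, Rn7sk and the pair Rn7s1 and Rn7s2), with the most in P1d replicate 2. Xist was above 1 FPKM, and Ddx3y and Eif2s3y at 0, in 2 of 3 hearts at E18.5d (replicates 1 and 3) and 2 of 3 at P7d (replicates 2 and 3), against their male label, and in none of the 3 at P1d. In all, 4 hearts went against the label, and counts with them as a covariate and without them are given with each comparison.

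The 10 mRNAs of at least 400 bases, with their copies, made up 2.40%, 2.50% and 2.82% of all fragments in the 3 hearts of E18.5d. They made up 3.97%, 3.82% and 4.40% at P1d and 4.67%, 4.81% and 4.88% at P7d. The stages did not overlap, and the means were 2.57% ± 0.218, 4.06% ± 0.299 and 4.79% ± 0.108 (SD, n = 3). The 2 rRNAs held 1.73%, 2.22% and 2.34% at E18.5d, 2.99%, 2.46% and 3.61% at P1d and 4.29%, 4.62% and 3.89% at P7d. Set against the summed FPKM of nuclear protein-coding genes, the 13 mRNAs as deposited averaged 5.18% ± 0.529 at E18.5d, then 8.13% ± 1.17 at P1d, then 10.1% ± 0.354 at P7d (SD, n = 3). These sums are descriptions without a test. In whole hearts, more cells rich in mitochondria and more mitochondrial RNA per cell cannot be told apart.

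**Figure D2:**
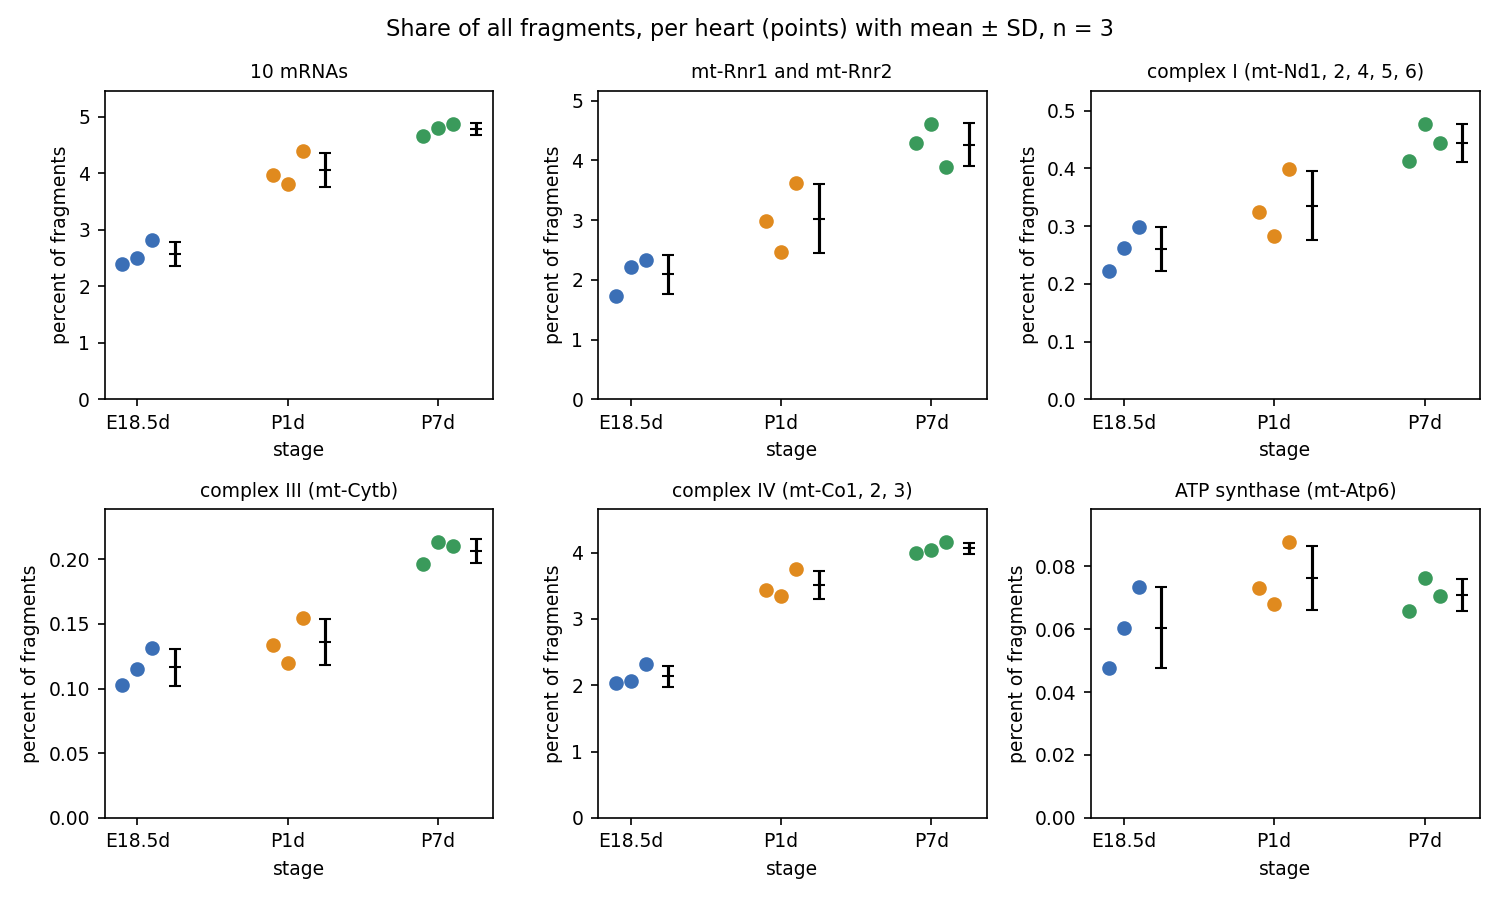
Percent of all fragments in each heart (points) with the mean and SD of 3 hearts, by stage, for the 10 mRNAs of at least 400 bases, the 2 rRNAs and the mRNAs of each complex, copies included. The stages did not overlap for the 10 mRNAs, the rRNAs and complex IV, and they overlapped for ATP synthase.

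The mRNAs of complex IV, cytochrome c oxidase, which passes electrons to oxygen, held most of this share. With copies, mt-Co1, mt-Co2 and mt-Co3 made up 2.03% to 2.32% of all fragments at E18.5d, 3.35% to 3.75% at P1d and 3.99% to 4.16% at P7d. Complex I, the NADH dehydrogenase, was far below it. Its 5 mRNAs of at least 400 bases held 0.222% to 0.298% at E18.5d, 0.282% to 0.400% at P1d and 0.412% to 0.478% at P7d. The only mitochondrial subunit of complex III, mt-Cytb, held 0.103% to 0.131%, 0.120% to 0.155% and 0.196% to 0.213% at the 3 stages. mt-Atp6 of the ATP synthase held 0.0476% to 0.0736%, 0.0681% to 0.0877% and 0.0659% to 0.0762%, with all 3 stages overlapping.

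On the FPKM scale, which is per length, the order of the 10 mRNAs at each stage was led by mt-Co1, then mt-Co3, then mt-Co2, and no heart broke it. At E18.5d the next were mt-Atp6 (1598 FPKM, copy included), mt-Nd1 (1550) and mt-Cytb (1383), whose hearts overlapped. At P7d, mt-Cytb (2477 FPKM) stood above mt-Atp6 (1915) and mt-Nd1 (1861) in every heart. The next places went to mt-Nd5 and mt-Nd4, which overlapped at each stage. The last places went to mt-Nd6 and mt-Nd2. mt-Nd6 stood above mt-Nd2 at E18.5d without overlap, and their hearts overlapped at P1d, where mt-Nd2 had the higher mean, and at P7d.

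**Figure D3:**
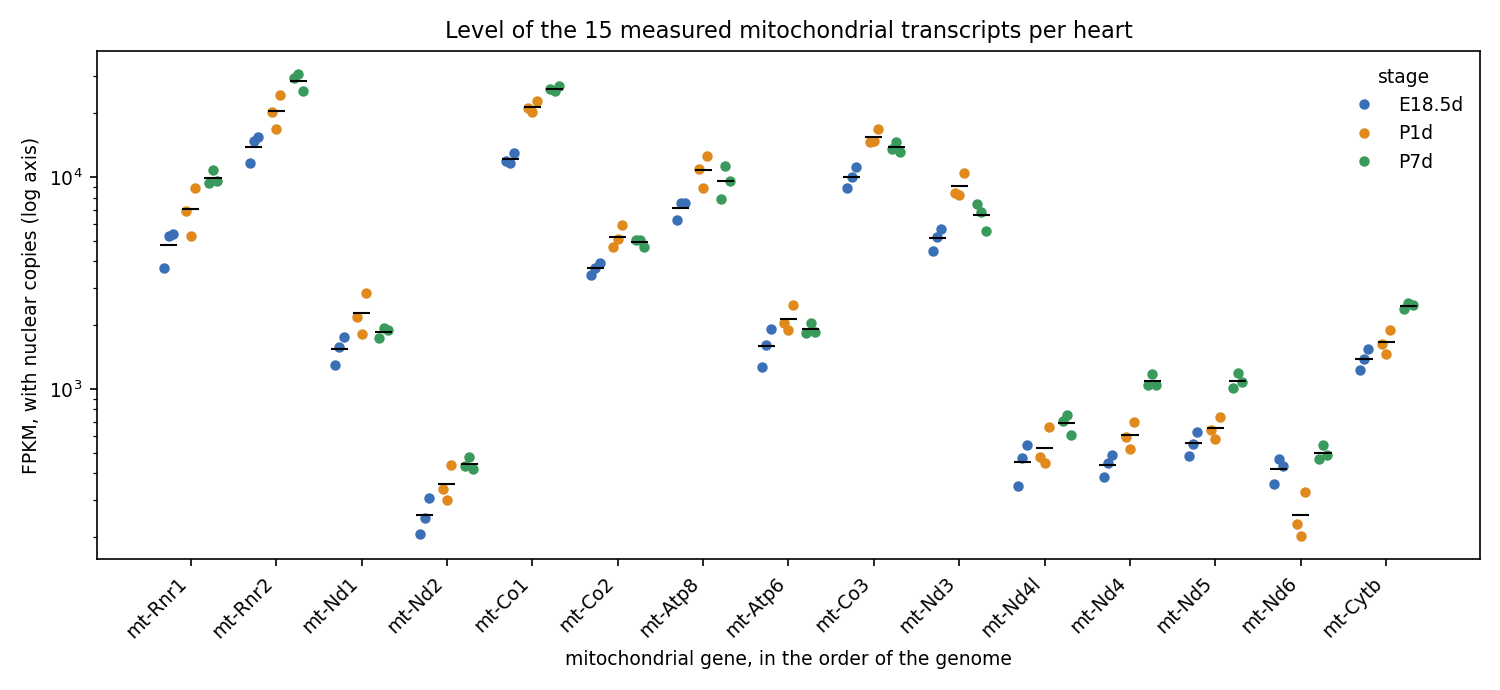
FPKM on a log axis of the 13 mRNAs and 2 rRNAs, copies included, in the order of the mitochondrial genome, with 1 point per heart and a bar at the mean of 3 hearts. mt-Nd6 was lowest at P1d, where its 3 hearts lay between 202 and 327 FPKM, while most other members were lowest at E18.5d.

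Differences between stages were tested in 1 fit with limma on log2(FPKM + 1), over the 13618 genes that averaged 1 FPKM or more in the 9 hearts, with adjustment over all of them. The same hearts serve in 2 comparisons each, so that the 3 comparisons are not independent. The log2 changes are on the log2(FPKM + 1) scale. At P1d against E18.5d, 7 of the 15 measured members rose, where 18.4% of all genes tested did, and 1 fell, where 27.6% did. At P7d against E18.5d, 8 rose (12.5% of all genes) and 0 fell (36.9%). At P7d against P1d, 6 rose (15.5%) and 0 fell (28.6%). The median log2 change of the 15 was 0.48, 0.85 and 0.43 in these comparisons, beside −0.06, −0.17 and −0.09 over all genes tested. With the copies added, 11 rose and 1 fell, 10 rose and 0 fell, and 6 rose and 1 fell.

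The count at P1d was the least stable of these. Without E18.5d replicate 1 it was 2 (5 with copies), without P1d replicate 3 it was 3 (6 with copies), and with Xist as a covariate it was 2 (6 with copies), where the other comparisons gave 8 and 4. The share of all genes that rose at P1d in these fits was 15.9%, 19.4% and 11.8%. In the fit with the Xist covariate, 1631 of all 13618 genes rose at P7d against E18.5d, beside 1706 without the covariate. At P7d against P1d, 1467 rose with the covariate, beside 2112 without it. With equal column sums, 1 member (mt-Co1) rose at P1d, and 4 with copies, where 8.60% of all genes rose. With no filter on low values mt-Rnr1, mt-Rnr2, mt-Nd1, mt-Nd2, mt-Co1 and mt-Atp8 lost their P1d call (adjusted p = 0.0564 to 0.266), where 9.21% of all genes rose, and under quantile normalization mt-Rnr1, mt-Rnr2, mt-Nd1, mt-Co1 and mt-Atp8 lost it (adjusted p = 0.0545 to 0.687), where 23.5% did. Without the 4 hearts with Xist, which leaves 1 heart each at E18.5d and P7d and assumes that it varies like the P1d hearts, 0 members passed in any comparison, with adjusted p of 0.0767 to 0.474 for those that had passed, other than mt-Nd4l, whose sign turned. In that fit 1.80%, 0.754% and 0.549% of all genes rose in the 3 comparisons. At P7d against E18.5d, mt-Rnr1, mt-Co1 and mt-Nd4 passed in each of the other alternatives run, and mt-Nd2, mt-Nd5 and mt-Cytb in each but the one that also required a log2 change of 1 or more.

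**Figure D4:**
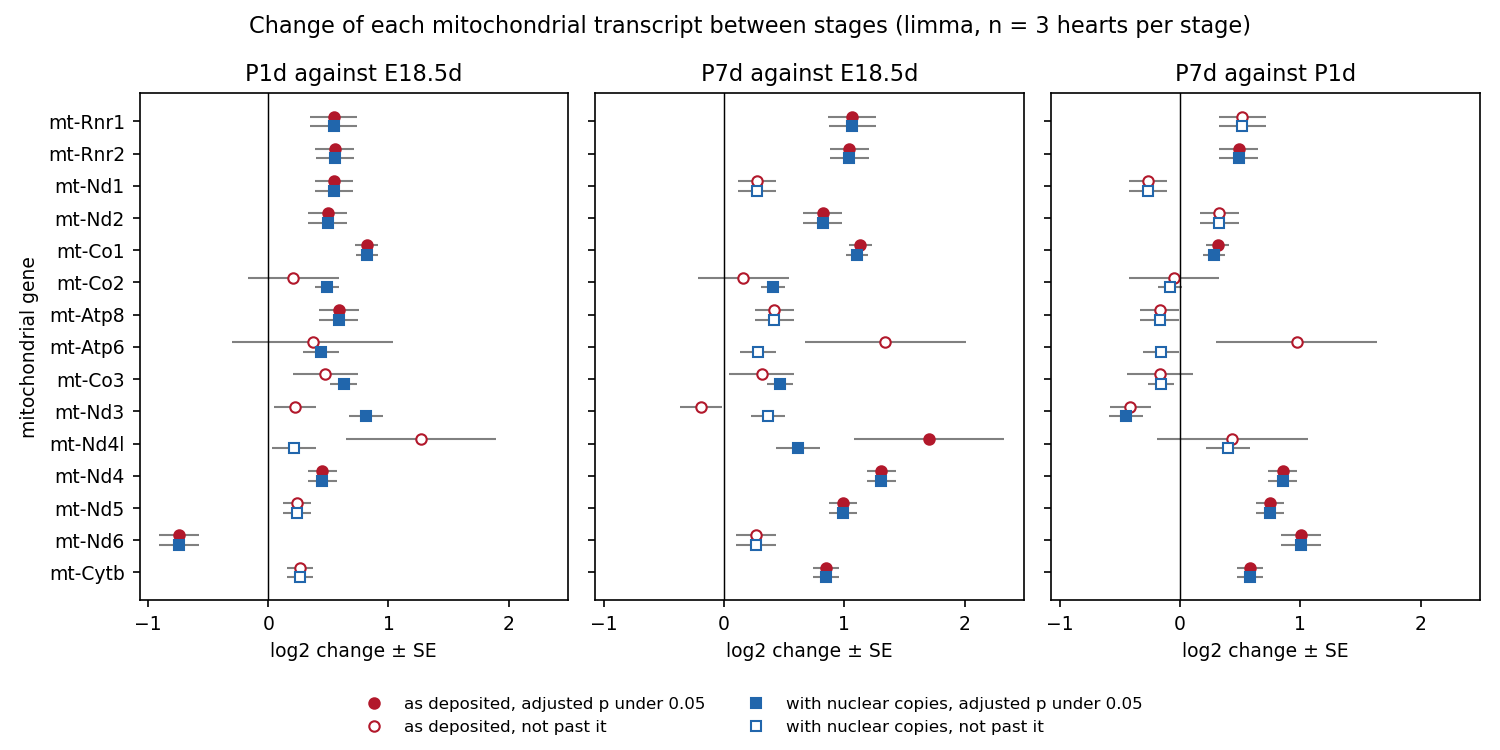
Log2 change of each member with its standard error in the 3 comparisons of stages, as deposited (circles) and with the nuclear copy added (squares). Filled marks passed an adjusted p of 0.05 in limma. mt-Nd6 lay at −0.74 in the first panel, and the wide errors of mt-Atp6 and mt-Nd4l as deposited narrowed once the copy was added.

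mt-Co1 (chrM:5328-6872, plus strand) encodes the catalytic core of cytochrome c oxidase. It was at 11480.3, 11115 and 12354 FPKM in the 3 hearts of E18.5d. It was at 20508, 19182 and 21994 FPKM at P1d and at 25439.7, 24861 and 26324 FPKM at P7d. No hearts of different stages overlapped. The log2 change was 0.82 ± 0.10 (SE) at P1d against E18.5d (adjusted p = 0.000145), 1.13 ± 0.10 at P7d against E18.5d (adjusted p = 1.95e-05) and 0.31 ± 0.10 at P7d against P1d (adjusted p = 0.0238). The last call was lost without P1d replicate 1, P1d replicate 2 or any one P7d heart (adjusted p = 0.0509 to 0.0701), with Xist as a covariate (adjusted p = 0.139), with only P1d and P7d in the fit (adjusted p = 0.0599), under quantile normalization (adjusted p = 0.476) and with no filter on low values (adjusted p = 0.470). The call at P1d was lost in the last 2 of these settings (adjusted p = 0.0545 and 0.0593). The copy Gm29216 ran at 2660 to 8576 FPKM over its own 492 bases. With its fragments added, mt-Co1 changed by 0.82, 1.10 and 0.29.

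mt-Co2 (chrM:7013-7696), the subunit that takes electrons from cytochrome c, could be read only together with Gm28661. Their sum was 3456, 3734 and 3952 FPKM at E18.5d, 4658, 5092 and 5956 at P1d and 5043, 5077 and 4666 at P7d. Every heart after birth was above every heart before it. The sum rose by 0.49 ± 0.10 at P1d (adjusted p = 0.00344) and by 0.41 ± 0.10 at P7d against E18.5d (adjusted p = 0.00802), and P7d and P1d differed by −0.08 ± 0.10 (adjusted p = 0.543), a sign that turned under each of the 5 other scalings. The call at P1d was lost under quantile normalization (adjusted p = 0.174). As deposited, mt-Co2 alone did not pass in any comparison, with 0.16 ± 0.38 at P7d against E18.5d.

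mt-Co3 (chrM:8607-9390), the third subunit of the core, was at 728 to 1670 FPKM alone and did not pass in any comparison. With Gm28437 it was at 8849, 10076 and 11172 FPKM at E18.5d, 14701, 14791 and 16843 at P1d and 13599, 14657 and 13193 at P7d. The stages did not overlap, with P1d above P7d. The sum rose by 0.63 ± 0.11 at P1d (adjusted p = 0.00143) and by 0.47 ± 0.11 at P7d against E18.5d (adjusted p = 0.00621), and P7d against P1d was at −0.16 ± 0.11 (adjusted p = 0.263). Under quantile normalization the call at P7d against E18.5d was lost (adjusted p = 0.0762).

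In complex I, mt-Nd4 (chrM:10167-11544), one of the proton-pumping subunits, had the largest change of the longer mRNAs at P7d against E18.5d. It was at 384, 447 and 487 FPKM at E18.5d, 590, 517 and 699 at P1d and 1039, 1169 and 1044 at P7d. All 3 stages were apart. It rose by 0.45 ± 0.12 at P1d (adjusted p = 0.0130), by 1.31 ± 0.12 at P7d against E18.5d (adjusted p = 3.38e-05) and by 0.86 ± 0.12 at P7d against P1d (adjusted p = 0.000502). The P1d call was lost with equal column sums (adjusted p = 0.186) and with Xist as a covariate (adjusted p = 0.0510).

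mt-Nd5 (chrM:11742-13565), another proton-pumping subunit, did not pass at P1d. Its hearts were at 481, 551 and 628 FPKM at E18.5d and at 639, 580 and 740 at P1d, which overlapped. At P7d they were at 1014, 1187 and 1082 FPKM, above all others. The change was 0.24 ± 0.12 at P1d (adjusted p = 0.122), 0.99 ± 0.12 at P7d against E18.5d (adjusted p = 0.000145) and 0.75 ± 0.12 at P7d against P1d (adjusted p = 0.000905). The ratio of mt-Nd4 to mt-Nd5, which does not depend on the scale of the column, was 0.776 to 0.813 at E18.5d, 0.896 to 0.946 at P1d and 0.966 to 1.03 at P7d, with no overlap.

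mt-Nd1 and mt-Nd2, the first subunits along the heavy-strand precursor, went apart at P7d. mt-Nd1 (chrM:2751-3707), which lies next to the quinone site, was at 1304, 1578 and 1768 FPKM at E18.5d, 2175, 1827 and 2834 at P1d and 1745, 1940.3 and 1898 at P7d. P1d lay above E18.5d in every heart, and P7d overlapped both. The change was 0.54 ± 0.16 at P1d (adjusted p = 0.0191) and 0.27 ± 0.16 at P7d against E18.5d (adjusted p = 0.177). mt-Nd2 (chrM:3914-4951), a proton-pumping subunit, was at 207, 246 and 307 FPKM, then 338, 297 and 436, then 432, 479 and 418. It rose by 0.49 ± 0.16 at P1d (adjusted p = 0.0309) and by 0.82 ± 0.16 at P7d against E18.5d (adjusted p = 0.00251), with P7d above E18.5d in every heart. The ratio of mt-Nd1 to mt-Nd2 was 5.76 to 6.42 at E18.5d, 6.15 to 6.50 at P1d and 4.04 to 4.54 at P7d, where all hearts lay below those of both earlier stages. The P1d call of mt-Nd1 was lost without E18.5d replicate 1 (adjusted p = 0.0705), and that of mt-Nd2 when either of E18.5d replicates 1 and 2, or of P1d replicates 1 and 3, was left out (adjusted p = 0.0542 to 0.108). Both were also lost with equal column sums (adjusted p = 0.151 and 0.203) and with Xist as a covariate (adjusted p = 0.0626 and 0.0859).

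The short mRNAs mt-Nd3 and mt-Nd4l, both membrane subunits of complex I, depended on their copies. mt-Nd3 (chrM:9459-9806) with Gm28438 was at 4480.0, 5206 and 5722 FPKM at E18.5d, 8401, 8257 and 10482 at P1d and 7481, 6840 and 5576 at P7d. The sum rose by 0.82 ± 0.14 at P1d (adjusted p = 0.00148) and fell by 0.45 from P1d to P7d (SE 0.14, adjusted p = 0.0290), a call that was lost under all 5 other scalings and without P1d replicate 3, P7d replicate 2 or P7d replicate 3 (adjusted p = 0.0589 to 0.185 over these). As deposited mt-Nd3 did not pass in any comparison. mt-Nd4l (chrM:9877-10173) with Gm10222 was at 348, 472 and 541 FPKM at E18.5d, 475, 446 and 658 at P1d and 703, 750.2 and 608 at P7d. The sum rose by 0.62 ± 0.18 at P7d against E18.5d (adjusted p = 0.0191), which was lost without E18.5d replicate 1, P7d replicate 1 or P7d replicate 2 (adjusted p = 0.0527 to 0.0681). As deposited, mt-Nd4l was at 42.3, 221 and 31.1 FPKM at E18.5d and at 160, 196 and 335 at P7d, overlapping, and its call of 1.70 ± 0.63 (adjusted p = 0.0466) was lost without any one heart but E18.5d replicate 2 (adjusted p = 0.0520 to 0.160).

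mt-Cytb (chrM:14145-15288), the subunit of complex III that binds both quinone sites, was at 1225, 1378 and 1546 FPKM at E18.5d. It was at 1629.8, 1462.5 and 1896 FPKM at P1d, overlapping E18.5d, and at 2391, 2552 and 2488 at P7d, above all other hearts. The change was 0.26 ± 0.11 at P1d (adjusted p = 0.0762), 0.85 ± 0.11 at P7d against E18.5d (adjusted p = 0.000248) and 0.58 ± 0.11 at P7d against P1d (adjusted p = 0.00244). The P1d change passed in 3 of 23 alternatives. These were median of ratios (adjusted p = 0.0405) and the fits without E18.5d replicate 3 (adjusted p = 0.0393) or P1d replicate 2 (adjusted p = 0.0281).

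The mRNA of mt-Atp8 and mt-Atp6 encodes 2 membrane subunits of the ATP synthase. mt-Atp8 (chrM:7766-7969) was at 6249, 7582 and 7580 FPKM at E18.5d, 10906, 8850 and 12616 at P1d and 7922, 11263 and 9586 at P7d. Both later stages lay above E18.5d in every heart. It rose by 0.59 ± 0.16 at P1d (adjusted p = 0.0160) and stood at 0.42 ± 0.16 at P7d against E18.5d (adjusted p = 0.0591). The P7d change passed in 7 of 23 alternatives and did not in 16. It passed with median of ratios (adjusted p = 0.0199) and equal protein-coding sums (adjusted p = 0.0228), among others. The P1d call was lost without E18.5d replicate 1 or P1d replicate 3 (adjusted p = 0.0593 and 0.0532) and with equal column sums (adjusted p = 0.0992). mt-Atp6 (chrM:7927-8607) with Gm10925 was at 1263, 1620.3 and 1912 FPKM, then 2049, 1907 and 2486, then 1845, 2044 and 1856. It rose by 0.44 ± 0.15 at P1d (adjusted p = 0.0361), which was lost without any one of E18.5d replicates 1 and 2, P1d replicates 1 and 3 and P7d replicates 1 and 3 (adjusted p = 0.0504 to 0.1125) and under quantile normalization (adjusted p = 0.171). The call was also lost with Xist as a covariate (adjusted p = 0.111), with equal column sums and with equal sums without mitochondrially encoded and haemoglobin genes. At P7d against E18.5d the pair changed by 0.28 ± 0.15 (adjusted p = 0.1435). That change passed with median of ratios, with equal protein-coding sums and without E18.5d replicate 3. As deposited, mt-Atp6 alone was at 57.1 to 484 FPKM and did not pass in any comparison.

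The rRNAs of the mitochondrial ribosome lie first in the heavy-strand precursor. The small one, mt-Rnr1 (chrM:70-1024), was at 3716, 5284 and 5371 FPKM at E18.5d, 6947, 5293 and 8914 at P1d and 9358, 10789.9 and 9551 at P7d. All P7d hearts were above all others, and P1d overlapped E18.5d. It rose by 1.06 ± 0.20 at P7d against E18.5d (adjusted p = 0.00183), and its change of 0.55 ± 0.20 at P1d (adjusted p = 0.0462) was lost when any one heart but P1d replicate 2 was left out (adjusted p = 0.0508 to 0.155). That change was also lost with equal column sums (adjusted p = 0.206), equal protein-coding sums (adjusted p = 0.0549) and Xist as a covariate (adjusted p = 0.161). The large one, mt-Rnr2 (chrM:1094-2675), was at 11612, 14746 and 15433 FPKM, then 20298, 16913 and 24368, then 29417, 30765 and 25469.8, with no overlap between stages. It rose by 0.55 ± 0.16, by 1.04 ± 0.16 and, from P1d to P7d, by 0.49 ± 0.16 (adjusted p = 0.0197, 0.000693 and 0.0351). All 3 calls were lost under quantile normalization, with log2 changes of 0.08, 0.20 and 0.11 (adjusted p = 0.687, 0.323 and 0.570), and the first and last also with no filter (adjusted p = 0.266 and 0.348). Its P1d call was lost without E18.5d replicate 1 or P1d replicate 3 (adjusted p = 0.0712 and 0.0674), and that from P1d to P7d when any of P1d replicates 1 and 2 and P7d replicates 1 and 2 was left out (adjusted p = 0.0736 to 0.1105). Equal column sums also lost the P1d call (adjusted p = 0.114). With Xist as a covariate both calls were lost (adjusted p = 0.111 and 0.0783). The ratio of mt-Rnr2 to mt-Rnr1 overlapped between all stages, with means of 2.93 ± 0.174, 2.95 ± 0.232 and 2.89 ± 0.240.

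mt-Nd6 (chrM:13552-14070, minus strand) is the only mRNA read from the other strand, and encodes a membrane subunit of complex I. It was at 354, 468 and 432 FPKM at E18.5d, 231, 202 and 327 at P1d and 469, 545 and 488 at P7d. Every P1d heart was below every other heart, and P7d and E18.5d were next to each other at 469 and 468 FPKM. It fell by 0.74 at P1d (SE 0.17, adjusted p = 0.00565) and rose by 1.01 ± 0.17 from P1d to P7d (adjusted p = 0.00126), and P7d against E18.5d was at 0.27 ± 0.17 (adjusted p = 0.212). Both were lost in the fit without the 4 hearts with Xist, where the changes were −0.91 and 0.92 (adjusted p = 0.116 and 0.136), and the fall did not reach the log2 change of 1 that another alternative required. They passed in the other alternatives run.

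The 2 genes next to mt-Nd6 did not fall. The ratio of mt-Nd6 to mt-Cytb was 0.289, 0.340 and 0.280 in the hearts of E18.5d, 0.142, 0.138 and 0.173 at P1d and 0.196, 0.213 and 0.196 at P7d, with no overlap between stages. The ratio of mt-Nd6 to mt-Nd5 was 0.735, 0.850 and 0.688, then 0.362, 0.348 and 0.442, then 0.463, 0.459 and 0.451, also without overlap. The ends of mt-Nd6 and mt-Nd5 overlap on opposite strands. Whether strand was kept in library construction and counting is not given in the sources used here, so that fragments of mt-Nd6 and of heavy-strand RNA opposite it cannot be told apart.

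**Figure D5:**
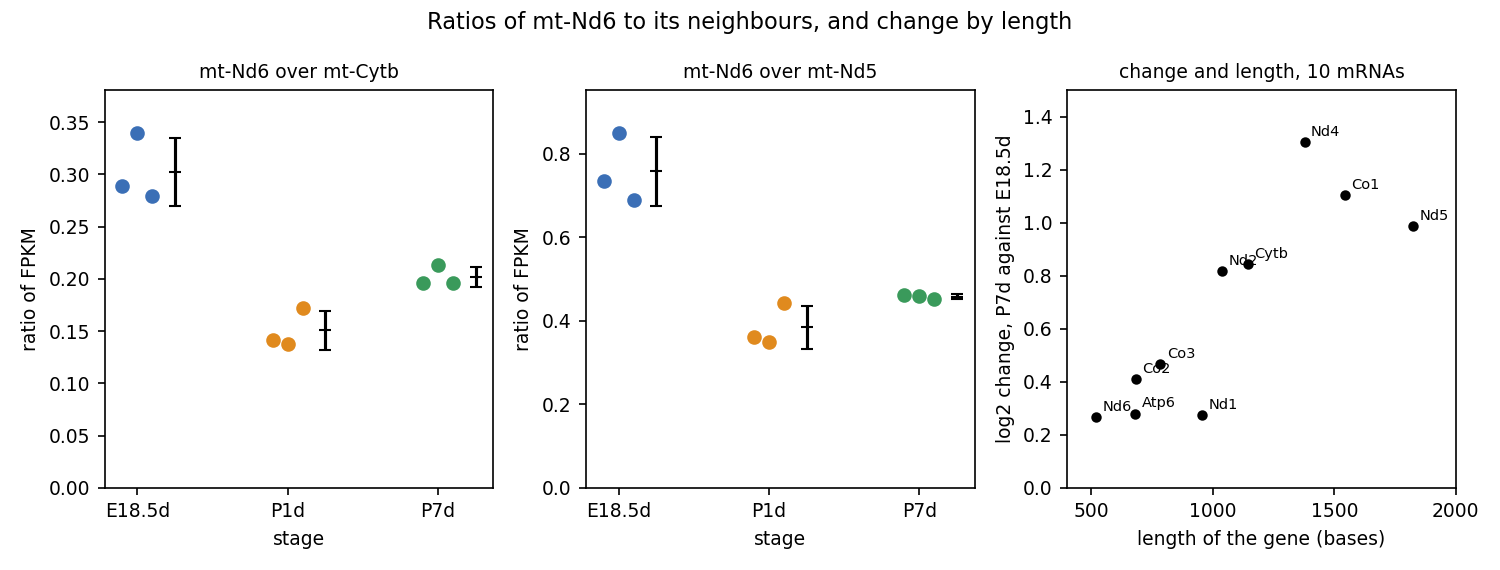
Ratio of the FPKM of mt-Nd6 to those of mt-Cytb (left) and mt-Nd5 (middle) in each heart, with the mean and SD of 3 hearts, and the log2 change at P7d against E18.5d of the 10 mRNAs of at least 400 bases, copies included, against gene length in bases (right). The P1d ratios lay lowest, the E18.5d ratios highest, and the longer mRNAs had the larger changes.

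Within the 10 mRNAs of at least 400 bases, the change at P7d against E18.5d went with gene length. The 5 mRNAs of 1000 bases or more (mt-Nd2, mt-Co1, mt-Nd4, mt-Nd5 and mt-Cytb) had a median log2 change of 0.99, and the 3 under 700 bases (mt-Co2, mt-Atp6 and mt-Nd6) 0.28, copies included. Spearman's rho of length and change was 0.88 over these 10 genes, which come from the same libraries. It was 0.16 at P1d against E18.5d and 0.25 at P7d against P1d. Among 406 nuclear protein-coding genes of 400 to 2000 bases with 1 annotated transcript, rho was 0.18 at P7d against E18.5d, with a median of −0.42 under 700 bases and −0.16 from 1000 bases on. The 5 mRNAs with a chromosome 1 copy over nearly the whole gene, among them mt-Co2, mt-Atp6 and mt-Co3, are all shorter than 1000 bases. Copies included, their changes at P7d against E18.5d ran from 0.28 to 0.62. Also shorter than 1000 bases, but without such a copy, mt-Nd1 and mt-Nd6 changed by 0.27 each. The part of length and of the copies in the differences between members was not tested.

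The nuclear genes of the same complexes were taken as lists of the known subunits, since each complex with a mitochondrially encoded subunit also needs these. The shares of all genes to read the counts of these lists against, at P7d against E18.5d, were 12.5% that rose and 36.9% that fell, and 21.4% and 20.9% with median of ratios. For complex IV, 4 of 16 nuclear subunits rose and 7 fell at P7d against E18.5d, with a median log2 change of −0.10, and with median of ratios 5 rose and 6 fell (median 0.08). Cox6a1, the non-muscle form of subunit 6A, fell from 482 ± 23.6 to 229 ± 13.9 FPKM (log2 −1.07, adjusted p = 5.76e-06). Cox8a, the non-muscle form of subunit 8, fell from 447 ± 15.02 to 233 ± 12.3 FPKM (log2 −0.94). Its muscle form Cox8b rose from 545 ± 10.2 to 875 ± 119 FPKM (log2 0.67, adjusted p = 0.00114). Cox4i1, the common form of subunit 4, rose from 1584 ± 56.9 to 2105 ± 116 FPKM (log2 0.41). These 4 calls held with equal column sums, equal sums of nuclear protein-coding genes, median of ratios and quantile normalization.

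For complex I, 5 of 36 nuclear subunits rose and 13 fell at P7d against E18.5d (median −0.03), near the shares of all genes (12.5% and 36.9%). With median of ratios this turned to 17 and 5 (median 0.15), beside 21.4% and 20.9% of all genes, and that scaling moved the median of all genes by 0.16. The largest fall was in Ndufb4, an accessory subunit, from 130.4 ± 3.72 to 87.0 ± 2.82 FPKM (log2 −0.58), followed by Ndufc2, another accessory subunit, from 282 ± 5.93 to 201 ± 19.5 FPKM (log2 −0.49). The largest rise was in Ndufv1, the core subunit that binds NADH, from 208 ± 11.5 to 281 ± 18.7 FPKM (log2 0.43, adjusted p = 0.00149). Ndufv3, an accessory subunit of the same arm, rose from 399 ± 11.3 to 473 ± 20.7 FPKM (log2 0.25), a call lost with equal column sums (adjusted p = 0.0572).

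For complex III, 1 of 9 nuclear subunits rose and 3 fell (median 0.05), near the shares of all genes (12.5% and 36.9%), and with median of ratios 6 rose and 1 fell (21.4% and 20.9% of all genes). Uqcrc1, a core protein, rose from 249 ± 13.1 to 346 ± 18.2 FPKM (log2 0.47). Uqcrb fell from 660 ± 25.5 to 459 ± 23.3 FPKM (log2 −0.52), and Uqcrh from 1159 ± 50.9 to 927 ± 53.8 FPKM (log2 −0.32), a call lost with median of ratios (adjusted p = 0.172) and turned under quantile normalization (log2 0.01). For the ATP synthase, 2 of 17 rose and 6 fell (median −0.08), also near those shares, and with median of ratios 4 rose and 2 fell (median 0.11). Atp5g1, a subunit of the membrane ring, changed by 0.30 on the log2 scale, and Atp5a1, the alpha subunit of the catalytic head, by 0.20, a call lost with equal column sums (adjusted p = 0.133). Atp5mpl changed by −0.67 and Atp5k by −0.49, the latter lost under quantile normalization (adjusted p = 0.168). Complex II has no mitochondrially encoded subunit, and 1 of its 4 subunits (12.5% of all genes), Sdha, the flavoprotein that oxidises succinate, rose at P7d (log2 0.19), which was lost with equal column sums (adjusted p = 0.222).

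The genes of proteins that transcribe, copy and process the mitochondrial genome were read against the same shares of all genes (12.5% rose and 36.9% fell at P7d against E18.5d, and 21.4% and 20.9% with median of ratios). Of 9 genes of mitochondrial transcription, 8 could be tested, and 0 rose and 3 fell, with Mterf3 (a regulator of mitochondrial transcription and ribosome assembly) at −0.45 and Mterf4 at −0.38. With median of ratios 0 rose and 2 fell. Tfam, which packs the mitochondrial genome and starts its transcription, fell by 0.35 at P1d against E18.5d (SE 0.11, adjusted p = 0.0294), from 29.5 ± 3.19 to 23.0 ± 3.76 FPKM, a call lost with median of ratios (adjusted p = 0.0744). It was named after its values were seen. Of 8 genes of mitochondrial DNA replication, 0 rose and 4 fell at P7d (0 and 3 with median of ratios), led by Mgme1, a nuclease, from 8.23 ± 0.45 to 4.95 ± 0.31 FPKM (log2 −0.63) and Twnk, the helicase, from 12.7 ± 0.45 to 7.88 ± 0.58 FPKM (log2 −0.63).

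Of 17 genes of mitochondrial RNA processing and modification, 1 rose and 8 fell at P7d against E18.5d (median −0.18), beside 12.5%, 36.9% and a median of −0.17 over all genes. With median of ratios 3 rose and 5 fell (21.4% and 20.9% of all genes). Grsf1, an RNA-binding protein of the mitochondrial RNA granule, rose from 66.0 ± 1.46 to 80.4 ± 3.99 FPKM (log2 0.28, lost with equal column sums at an adjusted p of 0.120). Tfb1m, which methylates the small rRNA, fell from 7.23 ± 0.23 to 4.67 ± 0.39 FPKM (log2 −0.54), and Fastkd5, which is needed for cuts not made at tRNAs, from 8.60 ± 0.04 to 6.11 ± 0.13 FPKM (log2 −0.43). Of 7 genes of mitochondrial RNA stability, polyadenylation and decay, 0 rose and 5 fell at P1d against E18.5d (median −0.29), where 27.6% of all genes fell, and also at P7d (median −0.36), where 36.9% did, and 3 fell at P7d with median of ratios, where 20.9% did. Slirp, a partner of the RNA-stabilizing protein Lrpprc, fell from 10.1 ± 1.37 to 5.76 ± 1.44 FPKM (log2 −0.73), and Pnpt1, the polynucleotide phosphorylase of RNA decay, from 13.1 ± 1.18 to 8.46 ± 0.20 FPKM (log2 −0.57).

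Markers of several cell types moved with stage beside these changes. The summed FPKM of 6 cardiomyocyte markers was 16182 to 16755 at E18.5d, 18571 to 21212 at P1d and 20061 to 21129 at P7d, so that heart muscle markers were high in every heart. The sum of 3 atrial markers was 4555 to 5476 FPKM, 3653 to 4441 and 2298 to 2526 at the 3 stages, and that of 5 fibroblast markers 1464.5 to 1569, 1296 to 1779 and 2212 to 2249. For 3 ventricular markers the sum was 15900 to 17692 FPKM, 17542 to 20058 and 18409 to 20133. The sum of 5 brown fat markers was 6.13 to 7.77 FPKM at E18.5d, 25.9 to 26.3 at P1d and 33.6 to 38.9 at P7d. Of these, Ucp1, the uncoupling protein that defines brown fat, was at 0 in all hearts of E18.5d. It was at 0.05, 0 and 1.31 FPKM in the hearts of P1d and at 5.77 to 7.26 at P7d. The sum of 6 erythroid markers was 8419 to 22746 FPKM, 12734 to 24730.0 and 8551 to 10410.0. No marker of these lists was at 0 in all 9 hearts. The sum of 5 endothelial markers averaged 359, 420.2 and 487 FPKM, that of 4 smooth muscle markers 822, 757 and 612 FPKM, and that of 5 macrophage markers 48.7, 75.3 and 65.2 FPKM at the 3 stages. The part of cell makeup in the mitochondrial changes was not tested.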

How the data were processed

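RNA had been extracted from 9 hearts with TRIzol and sequenced by the study after library construction with a NEBNext Ultra RNA kit. The authors deposited FPKM values of 48820 genes, and per the labels the processing named STAR, GRCm38 and mm10; the counting tool, annotation and strand setting are not given in the sources used here. Depth (25.5 to 44.0 times 1e6 fragments) and the bases taken off gene length (296 to 328) were estimated from steps between low values, of which 89.9% to 93.0% were whole within 0.15 of a fragment. Members were identified by gene identifier, and nuclear copies with BLAST 2.17.0 (at least 90% identity over 100 bases). Stages were compared with limma 3.58.1 in R 4.3.3 on log2(FPKM + 1) over the 13618 genes averaging 1 FPKM or more, with all 9 hearts in 1 fit and no covariate, Benjamini-Hochberg adjustment and a threshold of 0.05, two-sided. The procedure was tested on simulated data. Sums, ratios and length relations were described without a test. The members, gene lists and markers were chosen with earlier results of these data known. All measured members were named, and from each nuclear list up to 2 genes past the threshold with the largest change in each direction at P7d against E18.5d. Alternatives changed the pseudocount, filter, scaling, variance model, samples, block, covariate and size of change. The sums with nuclear copies and the fit without hearts with Xist were added after seeing the data. Replicate numbers did not pair hearts across stages.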

Additional observations from a re-analysis of the deposited data

How the results depend on the processing

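At P1d against E18.5d the count of 7 members that rose went to 1 with no filter, 1 with equal column sums, 1 with equal sums without mitochondrially encoded and haemoglobin genes, 2 under quantile normalization, 2 with the Xist covariate, 0 without the hearts with Xist, 11 with copies and 0 when a log2 change of 1 or more in size was also required, and lay between 2 and 8 when single hearts were left out. The share of all genes that rose in this comparison was 18.4%, and in the first 6 of these settings 9.21%, 8.60%, 8.73%, 23.5%, 11.8% and 1.80%. The 1 that fell went to 0 without the hearts with Xist and at that size of change, and was 1 without any single heart. At P7d against E18.5d the 8 that rose went to 5 at that size and 0 without the hearts with Xist (7 to 8 without single hearts). At P7d against P1d the 6 that rose went to 1 at that size and 0 without the hearts with Xist (4 to 8 without single hearts), and the 0 that fell went to 1 with copies (0 to 1 without single hearts, mt-Nd1 without P1d replicate 2 and mt-Nd3 without P7d replicate 1). The cause of these changes was not tested, but the fit without the hearts with Xist has 5 hearts. Of all 13618 genes tested, 260, 267 and 243 rose by a log2 change of 1 or more in the 3 comparisons. At P1d against E18.5d, 456 of them fell by that size. When single hearts were left out, 14.7% to 19.4% of all genes rose at P1d against E18.5d. In the same fits 10.2% to 13.5% rose at P7d against E18.5d, and at most 15.3% at P7d against P1d. The 13 mRNAs stood at 1.91%, 2.65% and 3.22% of the column sum at the 3 stages, at 3.44%, 5.57% and 7.64% of nuclear protein-coding FPKM without mRNAs shorter than 400 bases and at 8.77%, 13.9% and 15.6% with copies. On the column sum, E18.5d (1.71% to 2.14%) overlapped P1d (2.04% to 3.04%). With copies, P1d (12.2% to 15.8%) overlapped P7d (15.3% to 16.1%). The 10 mRNAs held 4.515% or 5.06% of fragments at P7d with 50 bases more or less taken off.

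Signs turned for members that had not passed, with the exception of mt-Nd4l. For mt-Co2 at P7d against P1d the log2 change became 0.079 with equal column sums, 0.095 with equal sums without mitochondrially encoded and haemoglobin genes, 0.10 with equal protein-coding sums, 0.060 with median of ratios and 0.033 under quantile normalization, and ran from −0.52 to 0.34 without single hearts. With its copy these were 0.05, 0.066, 0.073, 0.031 and 0.16, and −0.16 to 0.016 without single hearts. For mt-Co2 at P7d against E18.5d it ran from −0.31 to 0.55 without single hearts. Under quantile normalization mt-Atp8 (0.037), mt-Co3 (0.23) and mt-Atp6 with its copy (0.069) turned at P7d against P1d, and mt-Nd3 (−0.034) at P1d against E18.5d. Without single hearts mt-Atp6 ran from −0.30 to 1.14 at P1d against E18.5d, mt-Co3 from −0.34 to 0.065 at P7d against P1d and mt-Nd3 from −0.33 to 0.022 at P7d against E18.5d. With copies mt-Atp6 turned to −0.16 at P7d against P1d and mt-Nd3 to 0.37 at P7d against E18.5d. Without the hearts with Xist, mt-Nd4l turned to −0.44, −0.46 and −0.019 in the 3 comparisons, mt-Co3 to 0.18 at P7d against P1d and mt-Nd3 to 0.049 at P7d against E18.5d. Correlations of the deviations of same-numbered hearts ran from −0.055 to 0.112 over 9 pairs, with 1 over 0.1. With the replicate block the counts were 7, 8 and 6 that rose and 1, 0 and 0 that fell. Of all genes, 18.3%, 12.5% and 15% rose in that fit, and 27.1%, 36.4% and 28% fell. In it mt-Nd4l (P7d against E18.5d, adjusted p = 0.0519) and mt-Rnr2 (P7d against P1d, 0.0533) were lost, and mt-Atp6 passed in both (0.00718 and 0.0295).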
